A study of Homo sapiens with 6 samples.

Results

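Of the 24526 genes counted in the established cell line WM266.4, 8 purine salvage genes are described here: PRTFDC1, HPRT1, APRT, ADK, PNP, DCK, ADA and NT5C2. All 8 were found by their symbols. The set was chosen by the measured fall of PRTFDC1 in these same libraries, to which the other 7 genes were added for their role in purine salvage, so the change of PRTFDC1 is given as a description with no test. The line was derived from human melanoma. The neg.si group held 3 cultures transfected with a negative control siRNA and the RIPK4.si group 3 cultures transfected with siRNA specific for RIPK4, both taken after 48 h. The methods name 1 siRNA against RIPK4, so an effect of RIPK4 loss and an effect of that siRNA on other transcripts cannot be told apart.

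Cells obtain purine nucleotides in 2 ways. In de novo synthesis the ring is built step by step on phosphoribosyl pyrophosphate (PRPP). In salvage, free bases and nucleosides are taken back into nucleotides: HPRT1 joins hypoxanthine or guanine to PRPP, APRT does the same for adenine, and the kinases ADK and DCK phosphorylate adenosine and deoxynucleosides. PNP, ADA and the cytosolic nucleotidase NT5C2 act in the other direction or between these pools. PRTFDC1 (phosphoribosyltransferase domain containing 1) is a paralogue of HPRT1 that is known for very little catalytic activity.

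Counts on genes summed to between 28464057 and 31688095 in the 6 libraries. RIPK4, the silenced gene, had 2656, 2298 and 1739 counts with neg.si, against 585, 482 and 670 with RIPK4.si. Here and throughout, values of single libraries follow the order of replicates 1, 2 and 3. RIPK4 was lower by a log2 fold change of -1.90 (standard error, SE, 0.203), with a Benjamini-Hochberg adjusted p of 0.0102 in the quasi-likelihood test of edgeR. Its adjusted p was 0.106 without neg.si replicate 2 and 0.094, 0.0622 and 0.0725 without RIPK4.si replicate 1, 2 or 3. Markers of the melanocyte lineage summed to between 3014 and 3149 CPM (counts scaled to a common normalized library size) in neg.si and between 2174 and 2190 CPM in RIPK4.si, but the 7 markers did not move alike. With edgeR 1 of the 7 was called, PMEL (log2 fold change -1.30, adjusted p = 0.0111, and up to 0.129 over the alternatives), where 0.767% of all genes were. DESeq2 called 3, PMEL, TYR and DCT, where 2.91% of all genes were. PMEL holds CDK2 on its opposite strand, and reads were counted without strand. The log2 fold changes of TYR, DCT and SOX10 were -0.57, -0.73 and -0.15, and those of TYRP1, MLANA and MITF 0.36, 0.06 and 0.04. The part of these differences in the results on salvage genes was not tested. Leukocyte markers summed to 1.5 to 2.62 CPM with neg.si and 1.59 to 1.77 CPM with RIPK4.si. The groups did not overlap in the sums of the other lists: endothelial and fibroblast markers summed to 0.598 to 1.63 CPM with neg.si and 1.74 to 2.25 CPM with RIPK4.si, and keratinocyte markers to 10.2 to 11.6 CPM and 11.8 to 16.1 CPM. The latter were nearly all KRT10 (log2 fold change 0.41, edgeR adjusted p = 0.438). KRT5 and KRT14 were at 0 in 4 libraries and had counts only in replicate 1 of each group. These were 19 and 5 counts with neg.si and 6 and 5 counts with RIPK4.si. The part of these lists in the results was not tested either. A pair of neg.si libraries stood apart: the rank correlation, across genes, of relative level with GC content was 0.555 in neg.si replicate 1 and -0.547 in neg.si replicate 3, and between -0.0788 and 0.165 in the other 4 libraries. Genes are not independent replicates. How this trend met the salvage genes is given below with its values.

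PRTFDC1 (ENSG00000099256.19) spans bases 24848614 to 24952606 of chromosome 10 (GRCh38, minus strand), and HPRT1 (ENSG00000165704.15) spans bases 134460165 to 134520513 of chromosome X (plus strand). In GENCODE their longest coding sequences held 678 and 657 bases. These aligned over 656 bases, of which 445 (67.8%) were identical, and the encoded proteins of 225 and 218 residues were identical at 147 of 218 aligned positions (67.4%). The longest run of identical bases was 14. A stretch of 60 bases that holds this run is printed to show how often the paralogues differ even where they are alike, since reads on PRTFDC1 have to be told from those on HPRT1. Capitals mark the 12 bases that differ. The first line gives coding bases 584 to 643 of PRTFDC1, counted from the start codon, and the second bases 563 to 622 of HPRT1.
PRTFDC1: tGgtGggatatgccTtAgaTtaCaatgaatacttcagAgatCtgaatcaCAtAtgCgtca
HPRT1: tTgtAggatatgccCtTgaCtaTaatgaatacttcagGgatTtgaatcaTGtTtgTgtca

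PRTFDC1, for whose fall the set was chosen, stood in RIPK4.si at 28.8% of its neg.si level. Its counts were 106, 104 and 107 with neg.si, against 29, 27 and 32 with RIPK4.si. In CPM these were 3.42, 3.46 and 3.37 against 0.988, 0.935 and 1.03. The groups were far apart. In RNA from whole cultures, fewer cells with the transcript and less transcript per cell cannot be told apart. PRTFDC1 averaged 3.42 ± 0.0475 CPM (SD, n = 3) with neg.si, but 0.984 ± 0.0473 CPM (SD, n = 3) with RIPK4.si. This is a log2 fold change of -1.79, SE 0.228, and it lay between -1.82 and -1.75 with each library left out in turn. As a description, it was the 21st lowest log2 fold change of the 16297 genes measured above the filter.

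Few reads stood behind PRTFDC1. Its 317 counts over the neg.si libraries had an exact 95% Poisson interval of 283 to 354, and its 88 counts over the RIPK4.si libraries one of 70.6 to 108. Such intervals cover counting error only. The SD between the neg.si libraries was 1.39% of the mean, where counting alone gives 9.73% at this depth, and in RIPK4.si it was 4.81% against 18.5%. The replicates of PRTFDC1 therefore lay closer together than counting error, and their SD understates the error of the level.

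For the paralogue HPRT1 no difference between the groups was called. Its CPM values were 53.6, 64.3 and 73.3 with neg.si, against 63.4, 86.4 and 71.1 with RIPK4.si. The groups overlapped. The log2 fold change was 0.21 (SE 0.178, edgeR adjusted p = 0.803), with a 95% interval of -0.19 to 0.61, or 0.875 to 1.53 as a fold. In TPM, which corrects for exon length, HPRT1 was 27.1 times PRTFDC1 in neg.si and 106 times PRTFDC1 in RIPK4.si. Of the summed TPM of the pair, PRTFDC1 made up 4.24%, 3.60% and 3.09% with neg.si, but 1.07%, 0.744% and 0.993% with RIPK4.si.

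**Figure D1:**
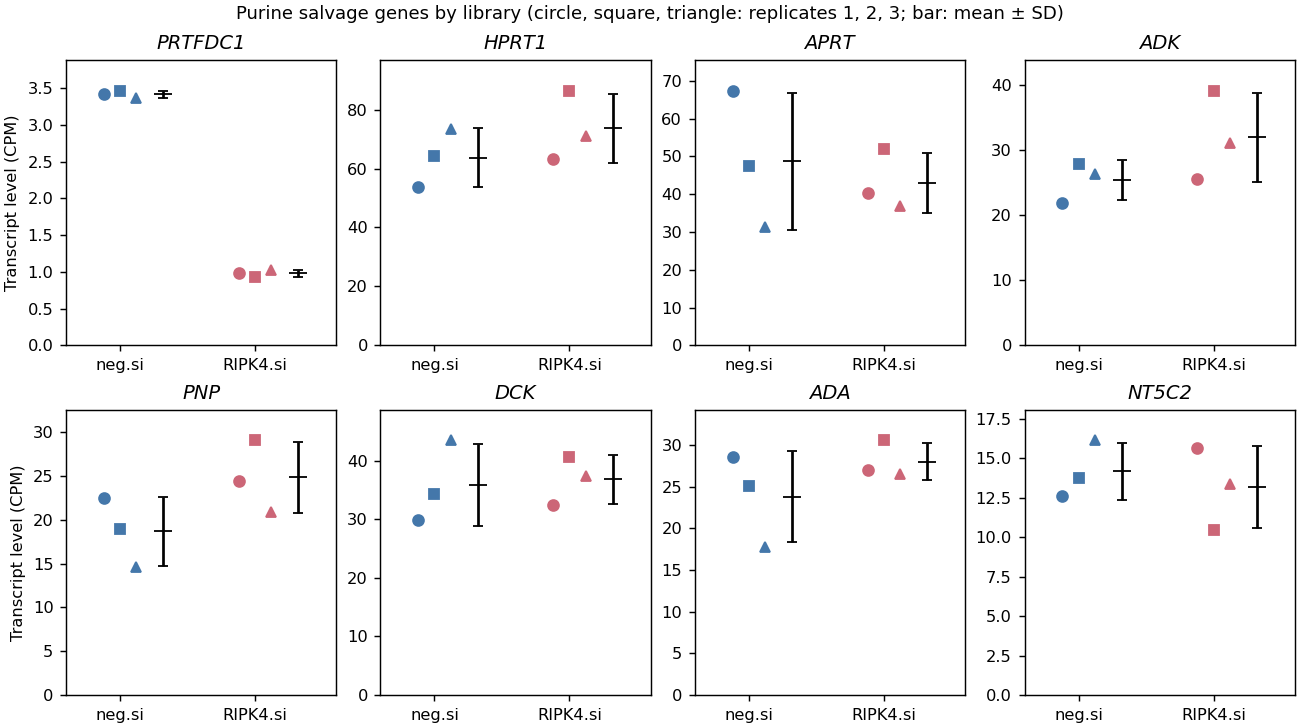
Transcript level in CPM (vertical axis, from 0) of the 8 purine salvage genes in each neg.si and RIPK4.si library, with one marker shape per replicate number and the mean ± SD (n = 3) beside the points. PRTFDC1 sits between 3.37 and 3.46 CPM in neg.si and between 0.935 and 1.03 CPM in RIPK4.si, while the groups overlap in each of the other 7 genes.

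All 8 genes passed the filter on low counts. Since PRTFDC1 was chosen by this same contrast, the test is read for the other 7 genes alone. None of these 7 was called at an adjusted p under 0.05 with edgeR, and none had an unadjusted p-value under 0.05. Over all 16297 genes tested, 0.767% were called, 61 that rose and 64 that fell. DESeq2 likewise called 0 of these 7, with 2.91% of all genes called, and 0 of the 7 had groups that did not overlap, against 17.6% of all genes tested. The median log2 fold change of the 7 was 0.21 and that of all genes tested -0.02.

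APRT (ENSG00000198931.11, chromosome 16, 88809339 to 88811937, minus strand), the adenine salvage enzyme, had the widest spread of the 8 genes in neg.si. Its CPM values were 67.4, 47.6 and 31.3 with neg.si, against 40.2, 52.0 and 36.8 with RIPK4.si. The RIPK4.si values all fell within the neg.si range. The log2 fold change was -0.18 (SE 0.266, edgeR adjusted p = 0.915), with a 95% interval of -0.78 to 0.42. Its sign depended on 1 library: without neg.si replicate 1 the log2 fold change was 0.14.

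ADK (ENSG00000156110.14, chromosome 10, 74151202 to 74709963, plus strand) phosphorylates adenosine to AMP. It had 21.9, 27.9 and 26.4 CPM with neg.si, against 25.6, 39.2 and 31.1 CPM with RIPK4.si. Only RIPK4.si replicates 2 and 3 lay above all neg.si libraries. The log2 fold change of ADK was 0.33 (SE 0.194, edgeR adjusted p = 0.632), with a 95% interval of -0.11 to 0.77. DCK (ENSG00000156136.10, chromosome 4, 70992538 to 71030914, plus strand) phosphorylates deoxycytidine, deoxyadenosine and deoxyguanosine. Its levels were 29.8, 34.4 and 43.5 CPM with neg.si, against 32.4, 40.6 and 37.5 CPM with RIPK4.si. The RIPK4.si values lay inside the neg.si range, and the log2 fold change was 0.04 (SE 0.183, edgeR adjusted p = 0.98), with a 95% interval of -0.38 to 0.45. Without neg.si replicate 1 it was -0.06. DCK overlaps MOB1B on the same strand.

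PNP (ENSG00000198805.11, chromosome 14, 20468954 to 20477094, plus strand) splits inosine and guanosine into base and sugar phosphate. It had 22.5, 18.9 and 14.7 CPM with neg.si, against 24.5, 29.1 and 21.0 CPM with RIPK4.si. The highest neg.si library lay above the lowest RIPK4.si library. The log2 fold change of 0.41 was the largest positive one of the 8 genes (SE 0.205, edgeR adjusted p = 0.536), with a 95% interval of -0.05 to 0.87.

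ADA (ENSG00000196839.13, chromosome 20, 44619522 to 44652233, minus strand) deaminates adenosine and deoxyadenosine. Its CPM values were 28.6, 25 and 17.8 with neg.si, against 27.0, 30.6 and 26.5 with RIPK4.si. The lowest value was that of neg.si replicate 3. The log2 fold change was 0.23 in all libraries (SE 0.197, edgeR adjusted p = 0.797, 95% interval -0.21 to 0.68) and 0.07 without that library. ADA overlaps PKIG on the opposite strand, and reads were counted without strand.

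NT5C2 (ENSG00000076685.18, chromosome 10, 103088017 to 103193306, minus strand) removes phosphate from IMP and GMP. It had 12.6, 13.8 and 16.1 CPM with neg.si, against 15.7, 10.5 and 13.3 CPM with RIPK4.si. No order of the groups was visible. The log2 fold change was -0.11 (SE 0.199, edgeR adjusted p = 0.935), with a 95% interval of -0.55 to 0.34. Without RIPK4.si replicate 2 it was 0.04. NT5C2 overlaps CNNM2 and INA on the opposite strand.

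**Figure D2:**
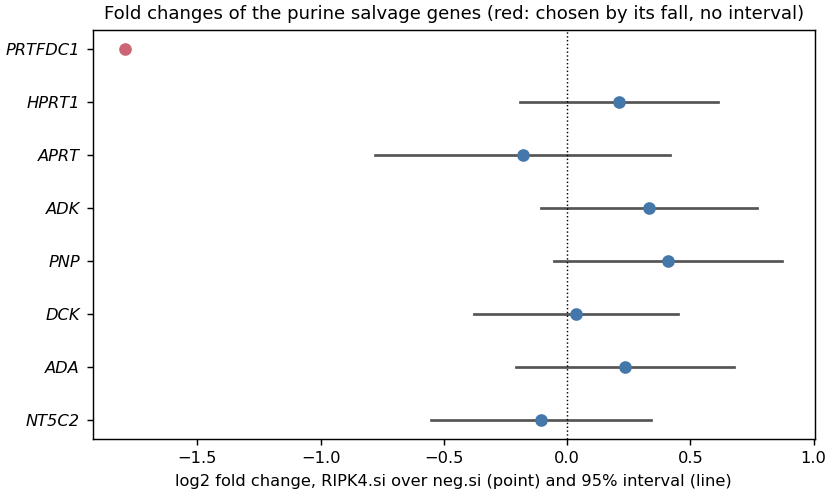
Log2 fold change of each purine salvage gene, RIPK4.si over neg.si (points), with its 95% interval from edgeR's quasi-likelihood fit (lines). PRTFDC1, the gene chosen by its fall, is drawn at -1.79 without an interval, and the intervals of the other 7 genes include 0.

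Compared per length, the order of the 8 genes was the same in both groups: HPRT1, APRT, DCK, ADK, PNP, ADA, NT5C2 and PRTFDC1. In neg.si the TPM was 131 ± 32.1 (SD, n = 3) for HPRT1, 87.2 ± 26.7 for APRT, 38.4 ± 11.3 for DCK and 17.9 ± 3.09 for ADK. It was 10.4 ± 1.41 for PNP, 6.32 ± 0.968 for ADA, 5.13 ± 1.16 for NT5C2 and 4.82 ± 0.406 for PRTFDC1. The libraries of HPRT1 and APRT overlapped, as did those of ADA and NT5C2 and those of NT5C2 and PRTFDC1; the other neighbours in this order did not overlap. In RIPK4.si no neighbours overlapped. There, NT5C2 lay between 3.22 and 6.10 TPM and PRTFDC1 between 1.13 and 1.51 TPM. The exon lengths used were those of all annotated transcripts merged, 12.2 kb for ADA, which lowers its TPM if the cells use shorter transcripts. Summed over the 8 genes, the level was 301 ± 23.2 TPM (SD, n = 3) in neg.si and 308 ± 8.73 TPM (SD, n = 3) in RIPK4.si, a difference smaller than the spread between the neg.si libraries.

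The spread of the salvage genes between neg.si libraries moved with their GC content. APRT, whose longest transcript is 63.2% G and C, and ADA, with 53.7%, were lower in neg.si replicate 3 than in replicate 1, by differences in log2 CPM of -1.11 and -0.68. DCK, with 37.8%, and HPRT1, with 40.4%, were higher, by 0.54 and 0.45. PNP, at an intermediate 44.7%, had a difference of -0.62, close to that of ADA. Over the 8 genes, Pearson's r between GC content and this difference was -0.89 and Spearman's rho -0.86, given as a description over 8 genes of the same libraries. PRTFDC1 went against its low GC content of 38.8%, with a difference of -0.02.

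When the trend of level on GC content was removed from each library, the SD of the neg.si libraries dropped from 37.1% to 11.8% of the mean for APRT, from 19.4% to 0.908% for DCK, from 15.5% to 3.32% for HPRT1 and from 12.8% to 3.54% for NT5C2. It grew from 21.0% to 28.8% for PNP and from 1.39% to 19.2% for PRTFDC1. PRTFDC1 then had 4.08, 3.54 and 2.76 CPM with neg.si, against 1.01, 0.993 and 1.02 CPM with RIPK4.si. After this removal 0 of the other 7 genes was called by edgeR, with 3.39% of all genes called, and their adjusted p-values lay between 0.386 and 0.869. Of the 7, ADA had groups that did not overlap, as did 23.3% of all genes tested.

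**Figure D3:**
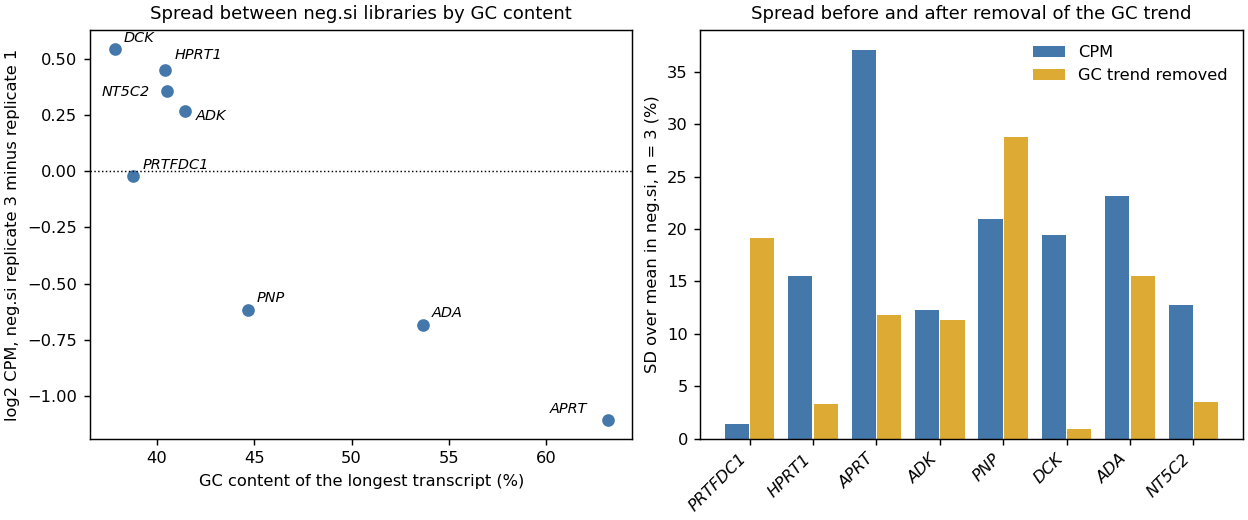
Left, the difference in log2 CPM between neg.si replicates 3 and 1 (vertical axis) against the GC content of each salvage gene's longest transcript in percent (horizontal axis); APRT is lowest at -1.11 and DCK highest at 0.54. Right, the SD over the 3 neg.si libraries as a percentage of the mean, for CPM (blue) and after removal of the GC trend (yellow), with APRT going from 37.1% to 11.8% and PRTFDC1 from 1.39% to 19.2%.

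The rest of purine metabolism was followed in 9 lists of 65 genes written from general knowledge, of which 58 were in the table and 49 were tested. With edgeR, 0 of the 49 rose and 0 fell at an adjusted p under 0.05, where 0.767% of all genes were called. Of the 49, 4 had an unadjusted p-value under 0.05, as did 1768 of the 16297 genes tested. DESeq2 called 1 of the 49, where it called 2.91% of all genes, and edgeR with the GC trend removed also called 1, where it called 3.39%. Their median log2 fold change was 0.06, against -0.02 for all genes tested, and 10 of the 49 had groups that did not overlap, where 17.6% of all genes tested had such groups.

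The gene called by those alternatives was NT5E (chromosome 6, 85449584 to 85495791), the ectonucleotidase CD73 that makes adenosine outside the cell. It had 418, 501 and 512 CPM with neg.si, against 278, 301 and 297 CPM with RIPK4.si. The groups did not overlap. NT5E had a log2 fold change of -0.71 (SE 0.149), with an adjusted p of 0.0761 in edgeR's quasi-likelihood test, 0.00383 with DESeq2 and 0.0233 with the GC trend removed. All alternatives together gave between 0.00383 and 0.448.

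ADSS1 (chromosome 14, 104724186 to 104747325, listed under its older symbol ADSSL1), a synthetase on the way from IMP to AMP, had the lowest log2 fold change of the 49 genes, at -1.08 (SE 0.332, edgeR adjusted p = 0.227). Its CPM values were 5.62, 4.0 and 3.56 with neg.si, against 3.0, 1.25 and 1.99 with RIPK4.si. These did not overlap, and DESeq2 gave an adjusted p of 0.069. IMPDH2, the main enzyme of the GMP branch, was at 277 ± 47.9 CPM (SD, n = 3) with neg.si and 336 ± 41.4 CPM (SD, n = 3) with RIPK4.si, a log2 fold change of 0.28 (adjusted p = 0.673 with edgeR).

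De novo synthesis of IMP was measured through 6 genes, with log2 fold changes from -0.17 to 0.39. PFAS, an amidotransferase of this route that shares part of its locus with CTC1, was at 40.6 ± 10.2 CPM (SD, n = 3) with neg.si and 53.3 ± 4.90 CPM (SD, n = 3) with RIPK4.si, with overlapping groups and an adjusted p of 0.534 from edgeR. PAICS, which carries a later pair of steps, was at 372 ± 31.1 CPM and 447 ± 63.2 CPM (adjusted p = 0.656 with edgeR). Among the 4 tested genes of PRPP supply, log2 fold changes ran from -0.18 to 0.22. The PRPP synthetases PRPS1 and PRPS2 had 0.22 and 0.21, with edgeR adjusted p-values of 0.705 and 0.817.

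Of the other salvage and deaminase genes, 7 were tested. MTAP, which releases adenine from methylthioadenosine for APRT, was at 27.7 ± 9.69 CPM (SD, n = 3) with neg.si and 19.1 ± 3.94 CPM (SD, n = 3) with RIPK4.si, a log2 fold change of -0.53 with overlapping groups (adjusted p = 0.531 with edgeR). ADA2, a secreted adenosine deaminase, was at 1.97 ± 0.648 CPM and 1.40 ± 0.460 CPM, with a log2 fold change of -0.49 (adjusted p = 0.726 with edgeR). Among the 6 tested nucleotidases, NT5C3A, which acts on pyrimidine monophosphates, had a log2 fold change of 0.39 (adjusted p = 0.615 with edgeR).

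The kinases AK5 and AK3, which pass phosphate to AMP, had log2 fold changes of 0.46 and 0.42 (adjusted p = 0.346 and 0.49 with edgeR). AK5 was at 5.97, 5.89 and 5.48 CPM with neg.si, against 7.94, 8.27 and 7.62 CPM with RIPK4.si, without overlap. RRM2 and RRM1, the subunits of ribonucleotide reductase, had 0.16 and 0.15 (adjusted p = 0.81 and 0.83). The nucleoside carrier SLC29A1 (ENT1) was at 43.6, 35.7 and 26.9 CPM with neg.si, against 45.8, 53.5 and 45.4 CPM with RIPK4.si, a log2 fold change of 0.45 (adjusted p = 0.448 with edgeR). SLC29A4 had -0.59 (adjusted p = 0.523), which became -0.87 (adjusted p = 0.0309) without neg.si replicate 3 and -0.29 (adjusted p = 0.659) without neg.si replicate 1. It shares part of its locus with TNRC18 on the opposite strand. The extracellular adenosine list holds adenosine receptors, ectonucleotidases of the ENTPD family and DPP4, a peptidase that binds ADA. Of its 9 genes, 3 passed the filter. The 2 with the largest differences, ADORA1 and ENTPD1, had log2 fold changes of -0.29 and 0.06 and group means from 0.951 to 2.06 CPM. The signs of both turned when single libraries were left out. The other, ADORA2B, was at 25.4 CPM with neg.si and 25.5 CPM with RIPK4.si (log2 fold change 0.003).

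**Figure D4:**
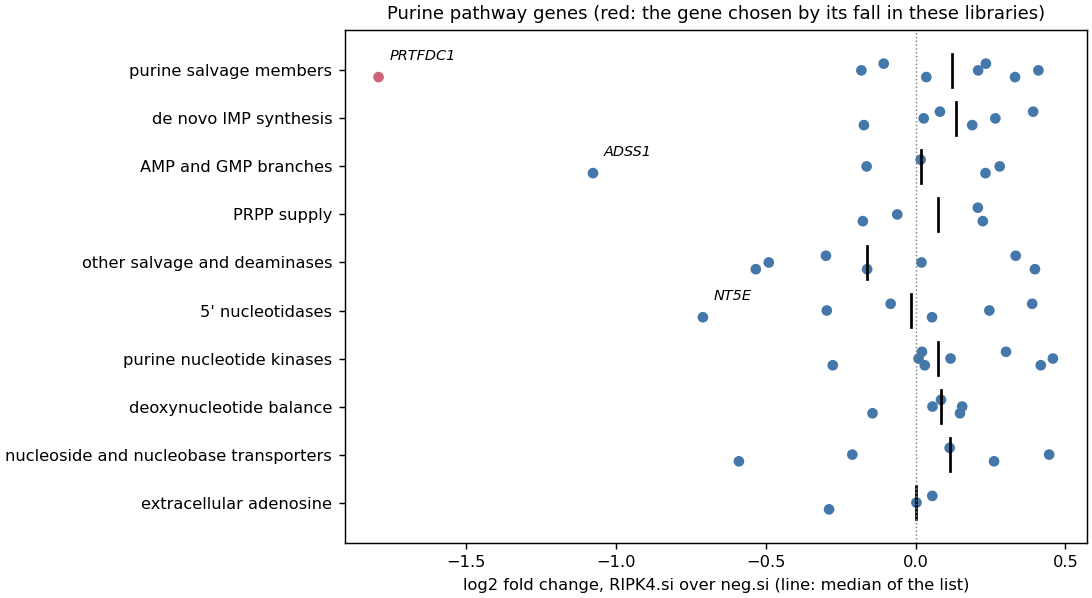
Log2 fold change, RIPK4.si over neg.si (horizontal axis), of each tested gene of the 8 purine salvage genes and of 9 other purine lists, with a black line at each list's median. PRTFDC1 (red, chosen by its fall) is at -1.79, ADSS1 at -1.08 and NT5E at -0.71, and the other genes lie between -0.59 and 0.46.

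Of the genes nearest to PRTFDC1 on chromosome 10, one on each side, ARHGAP21 was abundant enough to be tested. It ends 124727 bases from PRTFDC1 and had a log2 fold change of 0.21 (SE 0.156, edgeR adjusted p = 0.761). ENKUR, 29373 bases away on the other side, had 2 to 11 counts per library and did not pass the filter, so no fold change is given for it. Annotated transcripts that overlap PRTFDC1 are ENSG00000285859 and the pseudogene ENSG00000228667, both on the opposite strand, and the small RNA RN7SKP241. These were not used here.

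By Pearson's r of log2 CPM over the 6 libraries, the 5 tested genes most like PRTFDC1 were HAS3, FBLN5, CDK2, ATP9B and WWC3, with r from 0.995 to 0.998. Such values are a description: the points are libraries of 2 groups, 193 genes had an r over 0.95, and genes picked in this way have a small spread within each group. Their levels are likewise given with no test, since likeness to PRTFDC1 over these libraries selects for the difference between the groups. HAS3, a hyaluronan synthase, was at 18.6 ± 0.686 CPM (SD, n = 3) with neg.si and 5.68 ± 0.260 CPM (SD, n = 3) with RIPK4.si. FBLN5, an elastic fibre protein, was at 8.77 ± 0.180 CPM and 6.21 ± 0.139 CPM. The cell cycle kinase CDK2 was at 112 ± 2.38 CPM and 63.8 ± 1.64 CPM, but it lies within PMEL on the opposite strand and their reads could not be separated by strand. ATP9B, a lipid flippase, was at 20.4 ± 0.272 CPM and 15.6 ± 0.359 CPM, and WWC3, a regulator of Hippo signalling, at 25.6 ± 0.615 CPM and 13 ± 1.01 CPM. Among the salvage genes, r with PRTFDC1 ran from -0.69 for PNP to 0.30 for NT5C2, and it was -0.51 for HPRT1.

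The 7 bases ACAGCTT, chosen with earlier results of these libraries known, were searched on the transcript strand of the longest annotated 3' UTR of each salvage gene. They were absent from the 1230 bases of PRTFDC1 and from its coding sequence. They were found once in APRT and once in NT5C2, that is in 2 of the 8 genes. Of all 12978 protein-coding genes searched in this way, 18.4% held them. The median log2 fold change of those genes was -0.09, and that of the genes without the bases -0.00012. As the bases were chosen with results of these libraries known, the 2 medians are a description that supports nothing. Whether the bases bear on any change was not tested. Both sites are shown, with up to 10 bases on either side and the searched bases in capitals, because they are the ones found among the salvage genes. That of APRT starts at base 432 after the stop codon and that of NT5C2 at base 1364.
APRT: aacgcagtaaACAGCTTtcccacaa
NT5C2: ctttattttcACAGCTTttctataagt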

How the data were processed

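RNA from 6 WM266.4 cultures was sequenced by the authors as paired reads of poly(A) libraries on the BGISEQ-500, trimmed with Cutadapt, aligned with TopHat to GRCh38.p13 and counted per gene with HTSeq without strand. The counts used here are the raw whole numbers that the authors deposited for each gene. The same table holds size-factor scaled values and the fold changes, p-values and adjusted p-values of the authors, which were not used. The depth was 28464057 to 31688095 counts per library, which limits genes with few counts such as PRTFDC1.

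The counts were tested over all genes with edgeR 4.0.16 in R 4.3.3, after TMM scaling and its default expression filter, by a quasi-likelihood test of RIPK4.si against neg.si with Benjamini-Hochberg adjustment over 16297 genes. A gene was called at an adjusted p under 0.05. The standard error was the log2 fold change over the square root of F. With 3 libraries against 3, an exact permutation test cannot give a p under 0.1, so none was used. CPM used TMM library sizes, and TPM used merged exon lengths from GENCODE release 44, in which 24416 identifiers were found. Sequences, GC content (longest transcript) and 3' UTRs came from the same release and were read with Python 3.11.15 and Biopython 1.88. No protein table was used.

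Alternatives were DESeq2 1.42.0, DESeq2 size factors or upper-quartile scaling in edgeR, no filter, at least 10 counts in every library, a replicate block, removal of each library's GC trend (lowess, span 0.3) and each library left out in turn. Replicates differed by more than sampling noise (chi-square per degree of freedom at least 18.4). The methods describe the 3 libraries of each group as biological replicates, and the figure legends of the paper speak of 3 independent experiments. The labels do not say how the cultures were separated or whether same-numbered libraries belong together. The members, lists and alternatives were chosen with earlier results of these data known. The genes named were all 8 members, RIPK4, the genes nearest to PRTFDC1 and the 5 genes most like it. From each list they were called genes or else the 2 with the largest log2 fold changes, and ADORA2B was added.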

Additional observations from a re-analysis of the deposited data

How the results depend on the processing

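The log2 fold changes of PRTFDC1 (-1.82 to -1.75) and HPRT1 (0.09 to 0.33) kept their sign under all 13 alternatives, and HPRT1 was called under none of them. The 1 member called was PRTFDC1, by whose fall the set was chosen, so this count supports nothing. It was 1 under the 7 alternatives with all libraries and between 0 and 1 with a library left out (0 without neg.si replicate 2 or any one RIPK4.si library). The count over the purine lists, 0 in the main test, was 1 with DESeq2 and 1 with the GC trend removed, and between 0 and 1 with a library left out. Over all genes, 125 calls became 437 with DESeq2, 552 with the GC trend removed and 0 to 295 with a library left out. With a replicate block 131 genes were called and 1 member. Deviations of same-numbered libraries correlated at -0.242, 0.251 and 0.346, and KRT5 and KRT14 had counts only in replicate 1 of each group. Such values do not settle whether the numbers mark pairs, and the main test did not take them as pairs. Where 0 were called, without neg.si replicate 2, RIPK4.si replicate 1 or RIPK4.si replicate 3, unadjusted p-values under 0.05 numbered 1153, 1426 and 1086. With a library left out, signs of uncalled genes turned, and the cause was not tested: log2 fold changes ran from -0.415 to 0.142 for APRT, -0.063 to 0.203 for DCK, -0.24 to 0.044 for NT5C2, -0.829 to 0.003 for ADORA1 and -0.257 to 0.581 for ENTPD1. Depth limits PRTFDC1, with 27 to 107 counts per library.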
